A study of Mus musculus with 6 samples.

Results

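The 7 genes described here are neurotrophins, their receptors and a secreted protein they induce: the ligands Bdnf (brain-derived neurotrophic factor) and Ntf3 (neurotrophin-3), the receptors Ngfr (p75NTR), Ntrk2 (TrkB), Ntrk3 (TrkC) and Sort1 (sortilin), and Vgf. They were taken by Ensembl identifier, by a rule that uses no measured value. Of the 7, 5 carried a value in at least 1 library, among 15441 genes with a value in all, and no event carried the identifier of Ntf3 or Sort1. RNA came from the whole ipsilateral cortex of male C57/BL6J mice aged 6 to 8 weeks. Stroke was made by photothrombosis, in which light through the skull closes vessels after an injection of the dye Rose Bengal, and tissue was taken on day 1, 3, 7, 14 or 28. The control was cortex of sham-operated mice on day 7 after the operation. The control was thus matched in time to the day 7 library alone. RNA of 3 mice was pooled for each of the 6 groups and gave 1 library, so no difference below has a replicate check, no error can be given and no test was made.

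Neurotrophins are secreted growth factors that are made as precursors and cut by proteases. The mature proteins bind Trk receptors, which are tyrosine kinases: BDNF binds TrkB, and neurotrophin-3 binds mainly TrkC. All mature neurotrophins also bind p75NTR, and the uncut precursors bind p75NTR together with sortilin, a combination known for signals that favour cell death. Ntrk2 and Ntrk3 are also spliced to truncated receptors that lack the kinase, and truncated TrkB is the form known from astrocytes. In cortex BDNF is made mostly by excitatory neurons, from several promoters, each with its own 5′ exon joined to a common coding exon. VGF is a precursor of neuropeptides of the secretory granules, and its transcript is known to be induced by BDNF.

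The deposited values were FPKM (fragments per kilobase of transcript, scaled to the mapped fragments of the library), given for each transcript start, transcript end or splicing event rather than for each gene. For each gene and library the largest of the summed starts, the summed ends and any event was used. Log2 ratios to sham were taken after adding 0.1 FPKM to each value, which understates the ratios of low genes. Genes with at least 1 FPKM in either library were compared, and a log2 ratio of 1 in size was counted as past the fold. The depth of each library is unknown, and the labels state an average of 33.6 M reads. A gene or event without a value is called not listed, since events at 0 were left out of the tables and a missing entry may also be a failed assembly. As a check of the tissue, 5 of 6 marker genes of cortical neurons had a value, with a summed level between 31.1 and 47.5 FPKM. Summed markers of neurons were at 1801 FPKM in sham and lowest on day 14, at 1284 FPKM. In bulk tissue, fewer cells of a type and less RNA per cell cannot be told apart.

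Of the members with a value, 4 were compared at days 1, 3, 14 and 28, and none of them was past the fold in either direction. At day 7, Ngfr also entered the comparison and was counted higher, but it entered only because it was high in that library and had no entry in sham, so nothing is read from its count. Among all genes compared, 5.11% were higher and 4.48% lower on day 1, 8.54% higher and 2.53% lower on day 3, and 8.53% higher and 2.12% lower on day 7. The shares were 8.97% higher and 6.92% lower on day 14, and 3.68% higher and 2.79% lower on day 28. With 4 members compared at every day, the count of 0 among them cannot be set apart from the background percentages. In sham the order of the gene values in FPKM, which are scaled by length, was Vgf, Ntrk2, the span of Sort1, Ntrk3 and Bdnf from high to low. Ntrk2 lay above Vgf at days 3, 7 and 28, and Bdnf lay above Ntrk3 on day 1 alone. Without replicates, the spread between libraries of a group is unknown, and no neighbours in this order can be said to differ.

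**Figure D1:**
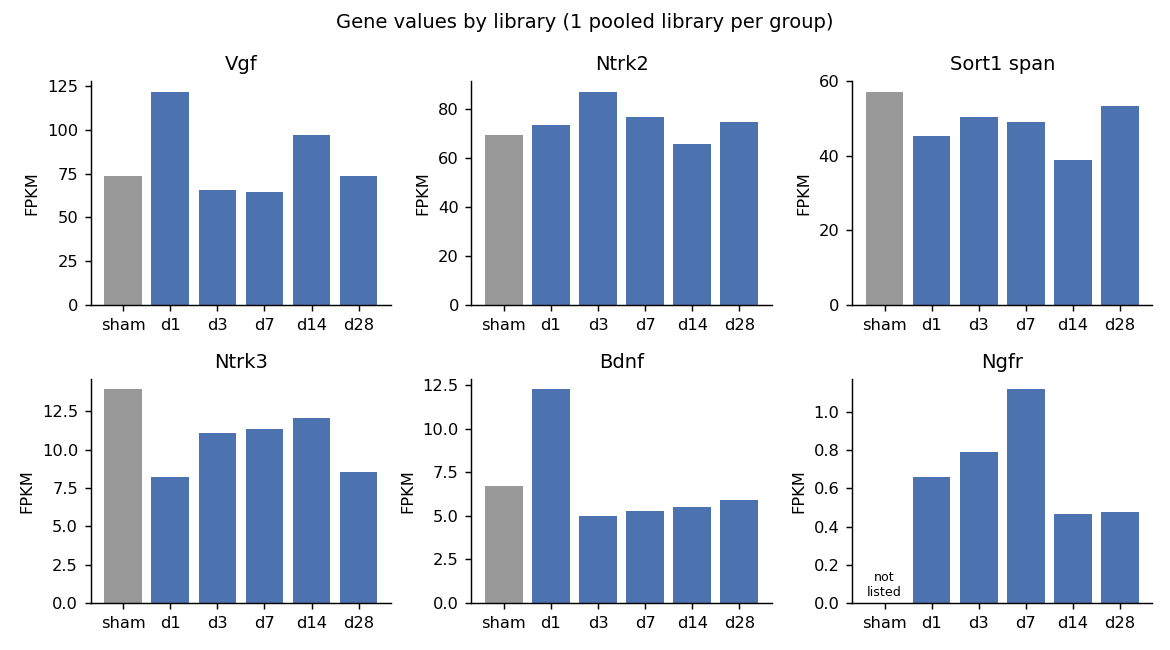
FPKM of each gene (vertical axis, from 0, a different scale in each panel) in the sham library and at 5 days after stroke (horizontal axis), with 1 bar per pooled library and no error bars because each group is 1 library. Bdnf and Vgf are highest on day 1 (12.2 and 121.7 FPKM), Ntrk3 is highest in sham (13.9 FPKM), and Ngfr is not listed in sham; the panel for Sort1 holds events taken by position.

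Bdnf (mouse build mm10, chr2:109674700-109727007, plus strand) was at 6.70 FPKM in sham, 12.2 on day 1, 4.99 on day 3, 5.27 on day 7, 5.53 on day 14 and 5.88 on day 28. The day 1 library stood above all the others and the 4 later libraries lay a little below sham. The log2 ratio to sham was 0.86 on day 1 and between -0.42 on day 3 and -0.19 on day 28 afterwards. No neurotrophin other than Bdnf was listed among the members, since no event of any library overlapped the annotated span of Ntf3 (chr6:126101412-126166910, minus strand).

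The Bdnf values could be divided by transcript start, because the listed starts sit exactly at annotated first exons. In every library the starts added up to the value of the listed end, which is the annotated long 3′ end of the gene. Exon I was at 1.41 FPKM in sham, 4.63 on day 1, 2.20 on day 3, 1.15 on day 7, 1.47 on day 14 and 0.712 on day 28. Exon II was at 0.679, 2.75, 0.601, 1.75, 0.477 and 0.968 FPKM in the same order of libraries. Both were highest on day 1, and they are neighbours at the 5′ end of the gene. Exon IV, the start best known for its control by neuronal activity, was at 1.36 FPKM in sham, 2.08 on day 1, 1.25 on day 3, 1.23 on day 7, 1.62 on day 14 and 1.19 on day 28. Exon VI was at 3.25 FPKM in sham, 2.62 on day 1, 0.939 on day 3, 0.930 on day 7, 1.61 on day 14 and 3.02 on day 28. It was thus the largest start in sham and on day 28, and was low at days 3 and 7, when the log2 ratio of the Bdnf total was -0.42 and -0.34. Exon III was listed on day 14 alone, at 0.351 FPKM, and a further annotated first exon, downstream of the others, was listed at days 1 and 7, at 0.171 and 0.219 FPKM.

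The difference in Bdnf between sham and day 1 was 5.54 FPKM, and exons I and II made up 5.29 FPKM or 95.4% of it. Exons I and II together held 31.2% of the summed starts in sham, 60.2% on day 1, 56.1% on day 3, 54.8% on day 7, 35.2% on day 14 and 28.6% on day 28. Exon VI held 48.5% in sham, 21.4% on day 1, 18.8% on day 3, 17.6% on day 7, 29.1% on day 14 and 51.3% on day 28. By exon VI and by exons I and II pooled, the makeup thus lay far from that of sham at days 3 and 7, when the total was no longer high. On day 28 it lay close to that of sham. The pooled share hides that exons I and II differed. Exon I held 21.1% in sham, 44.0% on day 3, 21.7% on day 7 and 12.1% on day 28. Exon II held 10.1%, 12.1%, 33.1% and 16.45% in the same libraries. No single start of the pair was thus high in share at both days 3 and 7. The log2 ratio of exon I was 1.65 on day 1, that of exon II 1.87 on day 1 and 1.24 on day 7, and that of exon VI -1.69 on day 3 and -1.70 on day 7. Past the fold were thus 2 of 4 compared starts higher on day 1, 1 of 3 lower on day 3, and 1 of 4 higher and 1 of 4 lower on day 7. Exon II was under 1 FPKM in sham, so it was compared on days 1 and 7 alone, through the libraries in which it was high, and nothing is read from its counts.

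Starts passed the fold more often than genes in these libraries. Of all starts compared, 14.0% were higher on day 1, 11.6% lower on day 3, and 16.5% higher and 11.2% lower on day 7. With 3 or 4 starts compared, 1 past the fold cannot be set apart from the background. At day 1 exons I and II lie side by side in 1 locus and are not independent of each other. The values by start are estimates from an assembly of reads that share all of the coding exon, and their error is unknown.

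**Figure D2:**
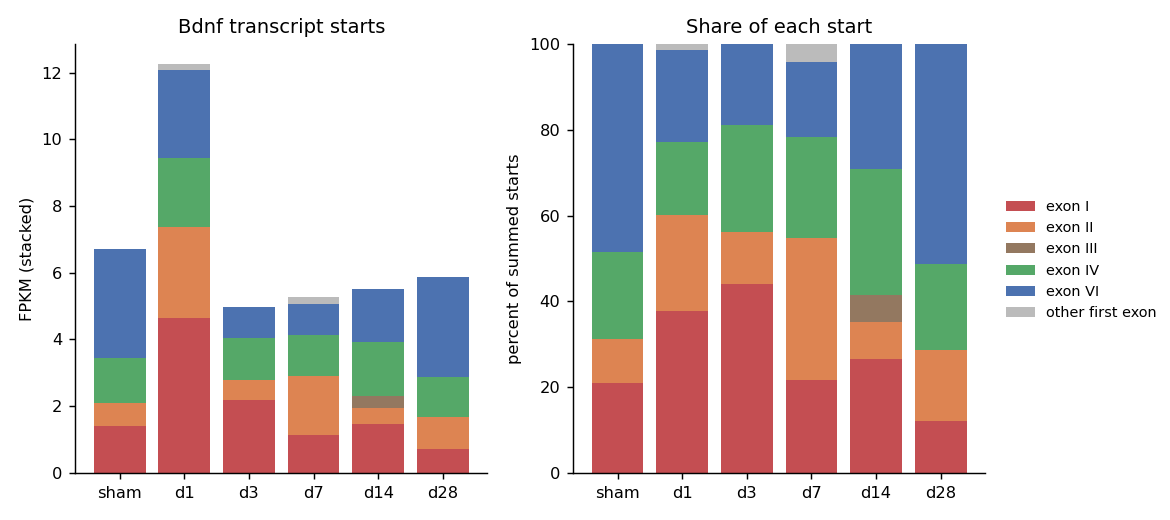
Bdnf transcript starts in the 6 libraries (horizontal axis), as stacked FPKM (left) and as percent of the summed starts (right), with 1 colour per first exon. Exons I and II take 60.2% of the starts on day 1 against 31.2% in sham, and exon VI takes 48.5% in sham, 17.6% on day 7 and 51.3% on day 28.

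The promoters of exons I and IV are shown, the former because its start made up most of the day 1 difference and the latter because it is the start best known for its control by activity. The promoter of exon II was not among the windows used here. The windows are RefSeq sequences of GRCm38, the assembly also called mm10, and run from 250 bases before to 50 bases after the start on the plus strand. Capitals mark TGACG, the core of the cAMP response element bound by CREB, read here on the opposite strand.
Bdnf exon I, chr2:109674450-109674749: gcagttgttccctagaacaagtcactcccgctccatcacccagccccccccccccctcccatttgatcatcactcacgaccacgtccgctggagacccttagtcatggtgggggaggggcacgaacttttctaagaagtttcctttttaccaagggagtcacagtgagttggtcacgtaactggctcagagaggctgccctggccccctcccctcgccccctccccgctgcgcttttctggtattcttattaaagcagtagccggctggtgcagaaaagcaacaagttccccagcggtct
Bdnf exon IV, chr2:109692186-109692485: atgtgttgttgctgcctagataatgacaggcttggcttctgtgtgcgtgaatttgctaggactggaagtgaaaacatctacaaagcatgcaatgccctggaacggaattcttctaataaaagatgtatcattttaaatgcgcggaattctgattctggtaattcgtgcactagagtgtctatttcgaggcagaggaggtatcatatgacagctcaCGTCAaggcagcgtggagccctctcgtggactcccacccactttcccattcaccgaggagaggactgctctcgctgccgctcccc
The exon IV window held the core 35 bases before the start, and the exon I window held none of the motifs searched. These were the full element TGACGTCA, which contains the core, the core TGACG itself, the AP-1 site TGANTCA and the EGR site GCGNGGGCG, on both strands. Of 32851 promoter windows of the same length, 1.79% held the full element, 20.8% the core, 7.81% the AP-1 site and 5.55% the EGR site. The core is thus common, and its presence is a description of the letters alone.

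Ntrk2 (chr13, plus strand), the receptor of BDNF, was at 69.3 FPKM in sham, 73.4 on day 1, 87.0 on day 3, 76.8 on day 7, 65.6 on day 14 and 74.8 on day 28. The values lay within 0.33 log2 units of sham in every library. This total was set by the starts, and the listed end gave another picture. The listed end, chr13:59128168-59133970, is the last exon of the full-length receptor with the kinase. It was at 24.4 FPKM in sham, 21.1 on day 1, 20.4 on day 3, 17.4 on day 7, 15.8 on day 14 and 22.5 on day 28. The full-length end was highest in sham and lowest on day 14, where the log2 ratio was -0.62, and was near sham again on day 28, with a log2 ratio of -0.12. After a correction of each library for its trend with transcript length, the ratios were 0.07 on day 1, -0.31 on day 3, -0.45 on day 7, -0.34 on day 14 and -0.09 on day 28, so that the lowest value was on day 7 and day 1 lay above sham.

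The full-length end stood at 35.3% of the summed starts in sham, 28.8% on day 1, 23.4% on day 3, 22.7% on day 7, 24.1% on day 14 and 30.1% on day 28. The ends of the truncated receptor were not listed in any library, so the rest of the starts, between 44.9 FPKM in sham and 66.7 FPKM on day 3, was not assigned to a form. A start that was listed at days 1, 3, 7 and 28, with 5.45 to 12.6 FPKM, was not listed in sham or on day 14. With the pair of starts listed in every library, the percentages were 35.3, 31.2, 27.4, 24.4, 24.1 and 33.0 in the order of the libraries. On either base all 5 post-stroke libraries lay below sham.

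The ratio of end to start is a coarse measure that moves in many genes. On the log2 scale it was lower than in sham by 0.59 on day 3, 0.64 on day 7 and 0.55 on day 14. The background was genes with at least 5 FPKM of starts and a listed end in every library, with no floor for the end. Among these the ratio was lower by 0.5 or more in 5.67% on day 3, 5.40% on day 7 and 6.35% on day 14. Among those in which, as in Ntrk2, the end was already well under the starts in sham (a log2 ratio of -0.5 or less), the percentages were 25.4 on day 3, 24.1 on day 7 and 30.9 on day 14. Against genes of this kind the Ntrk2 shift was a common one. The 10 summed astrocyte markers were at 949 FPKM in sham and at 1087, 1780, 1411, 1332 and 991 FPKM at days 1, 3, 7, 14 and 28. Gfap and Vim, which are known to be induced in reactive astrocytes, carried this course, and the other 8 markers summed to 848 FPKM in sham and to 693, 915, 907, 884 and 820 FPKM. The summed neuronal markers were at 1801 FPKM in sham and at 1689, 1303, 1351, 1284 and 1562 FPKM. Snap25 was at 706 FPKM in sham and 486.3 on day 14, Syt1 at 292.7 and 160.5, and Slc17a7 at 303.2 and 163.8. Nefl, Nefm and Gad2 were also below sham on day 14. Not so Rbfox3, at 89.9 FPKM in sham and 91.5 on day 14, Syn1, at 124.9 and 132.3, and Gad1, at 70.3 and 77.3. The neuronal sum and the sum with Gfap and Vim were thus farthest from sham at days 3 to 14, when the Ntrk2 percentage was low. The sum of the other 8 astrocyte markers stayed near sham then, but single markers among them did not all do so. Aldoc, the largest, was at 316.7 FPKM in sham and 252.2 on day 3, and Aqp4 at 27.0 and 50.6. Slc1a2 was at 199.9 FPKM in sham and 126.1 on day 14. The part of these cell types in the Ntrk2 percentage was not tested.

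**Figure D3:**
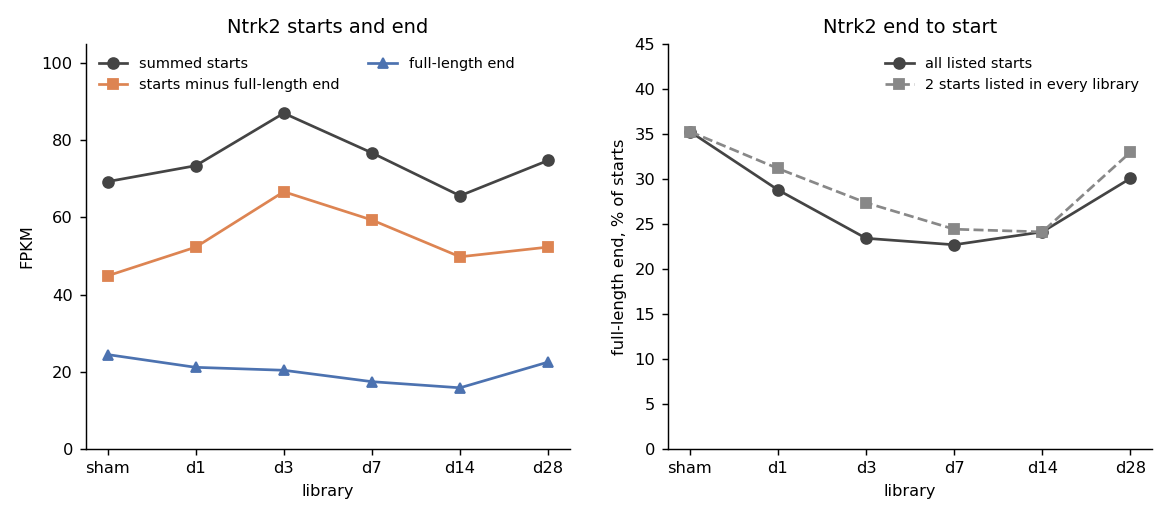
Left, FPKM of the summed Ntrk2 starts, of the full-length end and of their difference in each library; right, the full-length end as percent of the starts, over all listed starts (solid) and over the 2 starts listed in every library (dashed). The end is at 24.4 FPKM in sham and 15.8 on day 14, and the percentage over all starts is 35.3 in sham, 22.7 on day 7 and 30.1 on day 28.

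Ntrk3 (chr7, minus strand), the receptor of neurotrophin-3, was at 13.9 FPKM in sham, 8.22 on day 1, 11.1 on day 3, 11.3 on day 7, 12.1 on day 14 and 8.51 on day 28. All post-stroke libraries lay below sham, with log2 ratios of -0.75 on day 1, -0.71 on day 28 and -0.33 to -0.21 between them, except that day 14 turned to 0.07 after the correction for transcript length. In sham and at days 1 to 14 the value was that of the start. On day 28 the start was listed at 4.09 FPKM, and the value was that of the truncated end. The day 28 ratio thus sets an end against a start. The truncated end alone had a log2 ratio of -0.21 on day 28. The sum of the truncated and full-length forms was 12.5 FPKM on day 28 against 15.0 in sham, a log2 ratio of -0.26.

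For Ntrk3 the truncated end was listed, and the full-length forms could be read from splicing events around 2 optional exons in the kinase region. The inserts are shown because they tell the full-length forms apart, and no base is marked. Both are given as the coding strand of mm10, from the annotated transcripts.
Ntrk3 insert of 42 bases, chr7:78204103-78204144, minus strand: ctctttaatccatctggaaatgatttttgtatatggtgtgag
Ntrk3 insert of 75 bases, chr7:78229487-78229561, minus strand: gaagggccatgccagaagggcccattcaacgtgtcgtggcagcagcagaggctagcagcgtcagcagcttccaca
Inserts in the TrkC kinase are known to weaken its signalling. Both lengths are multiples of 3 bases, so the reading frame goes on through them.

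The truncated end of Ntrk3 was at 9.84 FPKM in sham, 8.08 on day 1, 8.08 on day 3, 8.88 on day 7, 7.92 on day 14 and 8.51 on day 28. Full-length Ntrk3 without an insert, the form with an uninterrupted kinase, was at 3.67 FPKM in sham, 1.67 on day 1, 1.44 on day 3, 2.26 on day 7, 3.20 on day 14 and 3.69 on day 28. The truncated end varied little and the form without an insert was low at days 1 and 3, with log2 ratios of -1.09 and -1.30, and close to sham on day 28. No share past the fold over all splicing forms was formed, so nothing is read from these ratios passing it. The form with 42 bases was at 0.416 FPKM in sham and ranged from 0.00188 FPKM on day 1 to 1.58 on day 3 with no order in time. On day 3 it was thus high where the form without an insert was low. The form with 75 bases was listed in sham and at days 1 and 7 alone, at 0.940 to 1.09 FPKM. All full-length forms together were at 5.12 FPKM in sham, 2.76 on day 1, 3.02 on day 3, 3.30 on day 7, 4.10 on day 14 and 3.97 on day 28. They made up 34.2% of truncated and full-length forms in sham, 25.4% on day 1, 27.2% on day 3, 27.1% on day 7, 34.1% on day 14 and 31.8% on day 28. With the sum of the forms the log2 ratio was -0.87 on day 1 and did not pass the fold at any day. Truncated Ntrk3 was the larger part in every library.

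**Figure D4:**
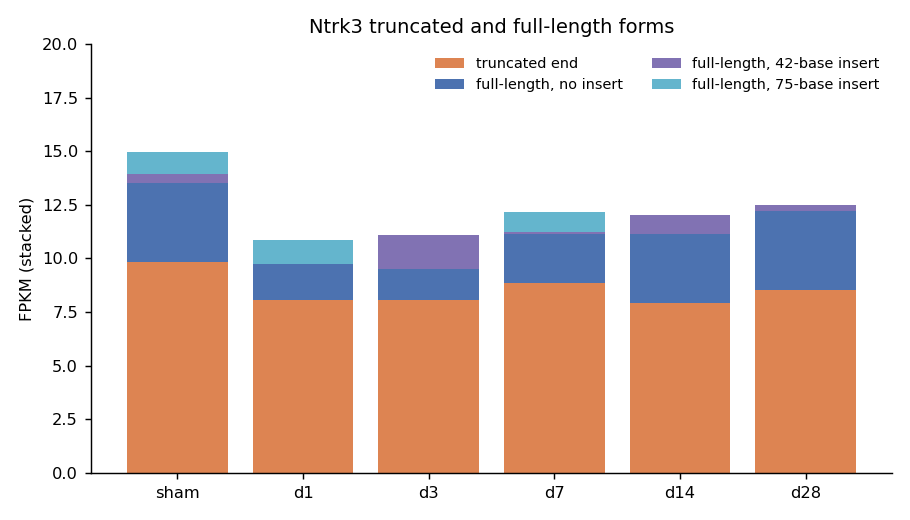
Stacked FPKM of the truncated Ntrk3 end and of the full-length forms without an insert, with the 42-base insert and with the 75-base insert, in each library. The truncated end stays between 7.92 and 9.84 FPKM, while the form without an insert is at 3.67 FPKM in sham, 1.44 on day 3 and 3.69 on day 28.

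Ngfr (chr11, minus strand), which encodes p75NTR, was not listed in sham and was at 0.661 FPKM on day 1, 0.792 on day 3, 1.12 on day 7, 0.465 on day 14 and 0.477 on day 28. It was the lowest of the members in every library that listed it, and reached 1 FPKM only on day 7. At day 7 only its end was listed, and on day 14 only its start. No fold is given against a library in which it is not listed. Of the 15441 genes with a value, 160 were not listed in sham and listed in all 5 post-stroke libraries. On day 7, 192 genes reached 1 FPKM without being listed in sham. Low values as such were listed in sham, where 901 genes had less than 0.5 FPKM, and why Ngfr had no entry there was not tested.

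Ngfr is known in the forebrain from the cholinergic neurons of the basal forebrain. Of 4 markers of these neurons, Slc18a3 was listed in no library, and Slc5a7, which carries choline into cholinergic endings, was at 1.08 FPKM in sham, at 1.20 to 1.39 at days 1, 7 and 28, and not listed at days 3 and 14. Chat, which makes acetylcholine, was not listed in sham and was at 1.04 to 2.13 FPKM in the post-stroke libraries. Lhx8, a transcription factor of these cells, was not listed in sham and was at 0.603 to 0.742 FPKM after stroke. The summed list was at 1.08 FPKM in sham and between 1.77 and 3.29 FPKM after stroke. The hypothalamic genes Oxt, Avp and Pmch were also not listed in sham, and on day 1 they stood at 9.28, 18.9 and 26.2 FPKM. Of 7 hypothalamic markers 5 had a value, with a sum of 2.16 FPKM in sham and 7.53 to 61.1 after stroke. The hypothalamic sum was highest on day 1. Of 6 markers of the striatum 4 had a value. Their sum was 256 FPKM in sham, 280.5 on day 1, 186.3 on day 3, 175.5 on day 7, 294.7 on day 14 and 337.3 on day 28. Ppp1r1b made up most of this sum, at 217.1 FPKM in sham and 134.2 on day 7. In the same libraries Drd2 was at 8.15 and 10.4 FPKM, Adora2a at 15.05 and 14.84, and Rgs9 at 15.7 and 16.0. Chat, Lhx8, Oxt and Avp thus shared with Ngfr that they were listed in all post-stroke libraries and not in sham, without the same course over days, and their part in the Ngfr value was not tested. Markers of Schwann cells, another known source of p75NTR, summed to at most 0.391 FPKM in any library. Markers of pericytes and fibroblasts summed to 45.1 FPKM in sham, 112.7 on day 3, 125.3 on day 7, 112.4 on day 14 and 42.4 on day 28, and their part was not tested either. Of these 7 markers, the collagen genes Col1a1, Col1a2 and Col3a1 were highest on day 7, while Pdgfrb and Rgs5 were highest on day 3 and Dcn and Lum on day 14.

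**Figure D5:**
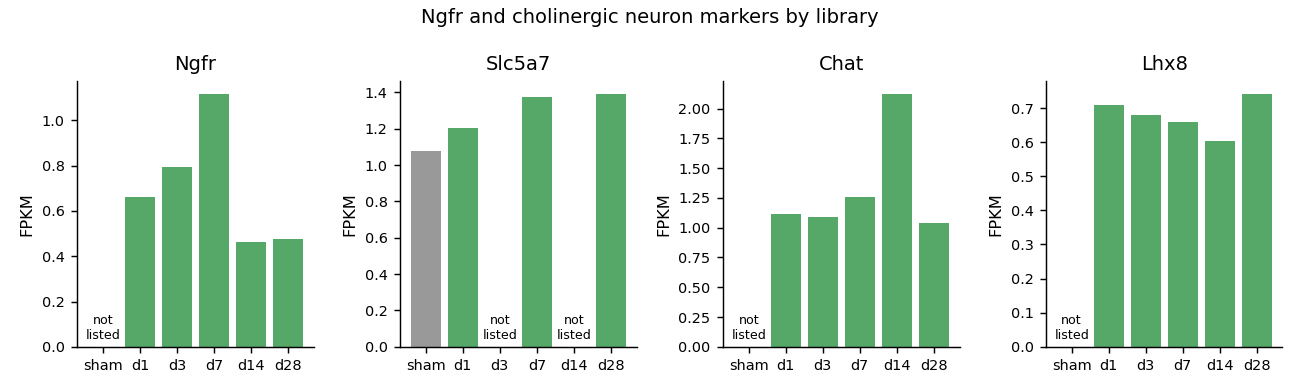
FPKM of Ngfr and of the cholinergic markers Slc5a7, Chat and Lhx8 in each library, with 1 bar per pooled library and different vertical scales. Ngfr, Chat and Lhx8 are not listed in sham, Slc5a7 is at 1.08 FPKM there, and Ngfr is highest on day 7 (1.12 FPKM) and Chat on day 14 (2.13 FPKM).

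Sort1 (chr3, plus strand), which encodes sortilin, carried no value under its own identifier. Events within its annotated span were filed under an adjacent noncoding gene, Gm12525, and their start was the annotated first exon of Sort1. By position, the largest value in the span was 57.1 FPKM in sham, 45.2 on day 1, 50.5 on day 3, 49.0 on day 7, 38.9 on day 14 and 53.4 on day 28. Its log2 ratio to sham was lowest on day 14, at -0.55, and -0.10 on day 28. The span held an optional exon near the membrane-spanning part of sortilin, shown here because its use could be measured.
Sort1 optional exon, chr3:108355472-108355570, plus strand: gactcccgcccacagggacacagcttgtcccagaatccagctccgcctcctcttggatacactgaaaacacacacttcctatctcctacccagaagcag
The exon adds 99 bases in frame, so that the annotated coding sequence has 2574 bases with it and 2475 without it. It was included in 11.7% of the FPKM of the span in sham, 10.5% on day 1, 10.6% on day 3, 10.6% on day 7, 5.04% on day 14 and 12.9% on day 28. The day 14 library stood below the other 5, which lay close together. Of all exons that could be compared on day 14, 19.4% were included at 0.5 times their sham percentage or less, and among exons included at 5 to 20% in sham it was 48.4%. The Sort1 exon on day 14 was therefore like many exons of its kind.

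Vgf (chr5, plus strand) was at 73.8 FPKM in sham, 121.7 on day 1, 65.7 on day 3, 64.3 on day 7, 97.0 on day 14 and 73.7 on day 28. It was highest on day 1 and next on day 14, and on day 28 it was close to sham. The log2 ratios were 0.72 on day 1, -0.17 on day 3, -0.20 on day 7, 0.39 on day 14 and -0.00 on day 28. The day 14 ratio was 0.215 after the correction for transcript length and 0.290 with median scaling. Its main start was at 60.7 FPKM in sham and 103.6 on day 1, and a second start at 13.1 and 18.1 FPKM, so that both were higher on day 1. The second start held between 14.5% and 20.2% of the value in all libraries. Vgf and Bdnf thus had their highest values in the same library, and Vgf alone was above sham on day 14.

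The genes whose 5 log2 ratios were closest to those of each member were sought among 11565 genes listed in all libraries with at least 1 FPKM in any of them, by the root mean square difference. For Bdnf these were Lamb3 at 0.12, Ifrd1 at 0.15 and Dennd3 at 0.16 log2 units. For Ntrk3, whose day 28 ratio sets an end against a start, they were Fa2h at 0.09, Paqr3 at 0.10 and Zfp629 at 0.14. For Vgf they were Pdcd2l at 0.10, Rheb at 0.11 and Dap3 at 0.11. For Ntrk2, Hacd2 lay at 0.05, Mfhas1 at 0.05 and Anks1 at 0.06, and 46 genes lay within 0.1, since its ratios were small. No gene lay within 0.1 of Bdnf or of Vgf.

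The rest of the pathway was read from 7 lists with 77 genes, of which 66 had a value. Past the fold were 3 genes higher and 3 lower of 62 compared on day 1, 5 and 0 of 63 on day 3, 4 and 0 of 62 on day 7, 1 and 4 of 62 on day 14, and 5 and 0 of 62 on day 28. The shares higher were 4.84%, 7.94%, 6.45%, 1.61% and 8.06% in the order of the days, beside 5.11%, 8.54%, 8.53%, 8.97% and 3.68% of all genes. The shares lower were 4.84%, 0.00%, 0.00%, 6.45% and 0.00%, beside 4.48%, 2.53%, 2.12%, 6.92% and 2.79% of all genes. In genes higher, the pathway as a whole was near the background at days 1 to 7. It lay below the background on day 14 and above it on day 28, with 1 and 5 of 62 genes, and no test was made. These counts include Sh2b2 and Egr2, from whose counts nothing is read below. Among 4 other neurotrophins and receptors with a value, none passed the fold at any day. These were relatives of sortilin, of which Sorl1 and Sorcs1 had their lowest ratios on day 14, -0.68 and -0.53, and Sorcs3 on day 3, -0.35. Among 8 p75NTR partners with a value, Traf6, an adaptor that binds p75NTR, was lower on day 14, with 0.502 FPKM against 1.73 in sham.

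Of 20 Trk adaptors and signalling genes, 1 was higher and 1 lower on day 1, 2 were higher on day 3 and 1 on day 7. Kidins220, a membrane scaffold of Trk receptors, was at 46.9 FPKM in sham and 13.1 on day 1, a log2 ratio of -1.84. Shc1, an adaptor that joins Trk receptors to Ras, was at 2.26 FPKM in sham and 5.80 on day 3. Sh2b2 was at 0.683 FPKM in sham and 1.57 on day 1. It was thus compared only through libraries in which it reached 1 FPKM itself, and nothing is read from its counts at days 1 and 3. Of 8 genes of proneurotrophin processing that could be compared, none passed the fold at any day. Furin, a convertase that cuts proneurotrophins inside the cell, had a log2 ratio of 0.62 on day 1. Plat, which encodes a protease that starts the cascade known to cut proBDNF outside the cell, had a log2 ratio of 0.74 on day 3, and the convertase Pcsk1 one of -0.97 on day 14. Of 8 granins and other genes of dense-core vesicles, the class of cargo to which VGF belongs, Scg2 alone passed the fold, with 17.1 FPKM in sham, 36.1 on day 7 and 34.9 on day 14.

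Of 6 transcription factors acting at Bdnf that could be compared, Creb1 and Mef2c were lower at days 1 and 14, and none was higher. Creb1 was at 5.69 FPKM in sham, 2.64 on day 1 and 0.804 on day 14, and Mef2c at 59.8, 23.0 and 21.3 FPKM. On days 3, 7 and 28 Creb1 was at 9.01, 5.46 and 5.08 FPKM, and Mef2c at 39.5, 47.8 and 50.5. Creb1 was thus above sham on day 3, and its values followed no order in time. At day 1 Creb1 and Mef2c were low in the library in which Bdnf was highest. Npas4, an activity-induced factor at 1.85 FPKM in sham, had log2 ratios of 0.89 on day 1, 0.25 on day 3, 0.67 on day 7, 0.83 on day 14 and 0.79 on day 28. The part of these factors in the Bdnf values was not tested. Of 9 early response genes that Trk signalling is known to induce, Fosb and Fos were higher on day 1, with log2 ratios of 3.39 and 2.08. Arc, Egr2 and Fos were higher on day 3, Egr2 and Fos on day 7, and Homer1 was lower on day 14. Egr2 was at 0.778 FPKM in sham, so it was compared only through libraries in which it reached 1 FPKM itself. Nothing is read from its counts. At day 28, 5 of the 9 were counted higher, beside 3.68% of all genes compared, and Egr2 with 3.11 FPKM was among the 5. The others were Arc, Fos, Fosb and Nr4a1, with log2 ratios of 1.55, 1.87, 1.10 and 1.29. The median log2 ratio of the list at day 28, with Egr2 included, was 1.10 against 0.03 over all genes compared. Bdnf and Vgf were at log2 ratios of -0.19 and -0.00 in that library.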

How the data were processed

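RNA of 3 mice per group was pooled, poly(A)-selected and sequenced in 6 strand-specific libraries with paired reads of 150 bases. The values used are FPKM that the authors computed and deposited for each transcript start, end or splicing event. The submitters' processing notes name Trimmomatic 0.30, HISAT2 2.0.1, HTSeq 0.6.1 and mm10. The assembler is not given in the sources used here. Since FPKM is scaled to depth, the depth per library is unknown and no interval is given.

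The gene value, the filter of 1 FPKM, the pseudocount of 0.1 and the log2 ratio of 1 are given with the results. Members and gene lists were chosen with earlier results of these data known, and 3 genes of the lists are not reported here. Of the pathway lists, the 3 genes with the largest log2 ratio in size were named, beside other genes counted past the fold and markers. Of the p75NTR partners and of the granins and dense-core vesicle genes, only the gene past the fold was named. Starts and ends were matched to GENCODE M21 on GRCm38. RefSeq promoter windows matched 4 of the 7 members. Shares of truncated ends could not be formed, and the ratio of end to starts and the Ntrk3 forms were chosen after the data were examined. Alternatives covered pseudocount, filter, fold, scaling, transcript length, gene value and reference. The counting of calls was tested on simulated data. Python 3.11.15, numpy 2.4.6, pandas 2.3.3 and matplotlib 3.10.9 were used.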

Additional observations from a re-analysis of the deposited data

How the results depend on the processing

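Each difference rests on 1 pooled library per group, so the spread between mice is unknown and leaving out a library leaves no comparison. Without the filter, Ngfr was counted past the fold at days 1, 3, 14 and 28 as well, 1 member at each. With a log2 ratio of 0.5, 3 members passed at day 1 (Bdnf, Vgf and Ntrk3) and 1 at day 28 (Ntrk3). The Ntrk3 ratio at day 28 sets its end against its start in sham, and from ends alone it was -0.21. Against the day 28 library, 1 passed at day 1 (Bdnf). With a filter of 5 FPKM, or from starts alone, 0 passed at day 7, and from starts alone 1 passed at day 28 (Ntrk3, log2 ratio -1.74). A pseudocount of 1 gave 2 pathway genes past the fold at each of days 3, 7 and 14, against 5, 4 and 5, and the length correction gave 3 at day 14. Of the log2 ratios of Bdnf, Ntrk2, Ntrk3 and Vgf under the alternatives, 129 lay within 0.25 of the values above, 11 did not, and in 6 pairs of gene and day the sign depended on the setting: Ntrk2 from ends alone at days 1, 3, 7 and 28 (-0.49 to -0.12), and Ntrk2 and Ntrk3 at day 14 with the length correction (0.20 and 0.07). With the largest start alone, the Ntrk2 end stood at 46.7% in sham and 38.2% at day 3. Full-length Ntrk3 was at 1.68% at day 1 when taken as start minus truncated end, and at 15.1% at day 3 for the form without an insert alone. Median scaling shifted all genes by 0.10 log2 units at day 14 and by at most 0.03 elsewhere. The share of truncated Ntrk2 ends and of Bdnf ends was not run, because 1 end of each was listed. No paired analysis was possible because each group is 1 library.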
